A study of Mus musculus with 8 samples.

Results

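Basal cells of the esophageal epithelium are marked by a small set of transcription factors and by the hemidesmosome, the junction that fixes them to the basement membrane. The 9 genes described here are the transcription factor genes Trp63, Sox2 and Pitx1 and the hemidesmosome and anchoring genes Itga6, Itgb4, Col17a1, Dst, Lamb3 and Lama3. They were picked by name as known basal and hemidesmosome genes. All 9 had a row among the 32849 listed gene symbols, and all 9 were among the 14864 genes that passed the filter on low counts and were tested. The libraries were made from poly(A) RNA of the frozen esophagus, 4 from MGL KO and 4 from WT animals, and reads were counted per gene symbol. MGL, monoacylglycerol lipase, degrades the endocannabinoid 2-arachidonoylglycerol. The MGL KO mice carry a global deletion of the enzyme and were bred with WT littermates, and neither group was treated. Adult mice of both sexes were used in the study. The labels give no strain, age or sex for a library, and the 4 Y-linked genes Ddx3y, Uty, Kdm5d and Eif2s3y were read in all 8 libraries.

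The hemidesmosome links the keratin filaments of a basal cell to the matrix beneath it. Integrin α6β4, encoded by Itga6 and Itgb4, is its transmembrane receptor. It binds laminin 332, whose chains include those encoded by Lama3 and Lamb3. Col17a1 encodes the transmembrane collagen BP180, and Dst encodes dystonin, whose epithelial form BP230 ties the plaque to keratins, as plectin (Plec) also does. The transcription factor p63 (Trp63) is needed to form stratified epithelia and is known as a regulator of adhesion genes in basal cells. SOX2 specifies the foregut that becomes esophagus, and PITX1 is a homeodomain factor found in oral and esophageal squamous epithelium.

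On GRCm39, Trp63 lies on chromosome 16 from 25502513 to 25710852, Sox2 on chromosome 3 from 34704554 to 34706610, and Pitx1 on chromosome 13 from 55972864 to 55984005. Itga6 spans chromosome 2 from 71575960 to 71689757, Itgb4 chromosome 11 from 115865333 to 115899239, and Col17a1 chromosome 19 from 47634783 to 47680533. Dst spans chromosome 1 from 33946918 to 34347742, and Lamb3 the same chromosome from 192890007 to 193027705. One row per symbol joins all forms of a gene. GENCODE lists 2 start sites of protein-coding transcripts for Trp63, which begin its long and its amino-terminally shortened forms, 14 for Dst and 2 for Lama3. Counts per symbol cannot separate them. Exon bases are shared with genes on the other strand in 7 of the 9, all but Trp63 and Col17a1. The longest stretches were 1453 bases for Dst with the noncoding Gm26788, 1233 for Sox2 with the noncoding Gm64654 and 1074 for Itgb4 with Galk1, and Dst also shares 463 with Bend6. The use of strand in counting is not given in the sources used here, so these overlaps remain uncertain.

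RefSeq upstream sequences (GRCm38.p6) were found for 4 of the 9 genes, Col17a1, Dst, Lamb3 and Sox2. The following stretches lie upstream of RefSeq starts of hemidesmosome genes whose levels are compared below. Such a start need not be the first of its gene, and the positions are on GRCm38.p6, unlike those above. Both Dst windows are shown because 1 count sums over starts 148665 bases apart. Capitals mark matches to the letters GGGCGG, a GC box, or ACAAAG, a SOX core, on either strand. Bases that GENCODE places in an exon were left out.
Col17a1, chr19:47692095-47692292, reverse strand: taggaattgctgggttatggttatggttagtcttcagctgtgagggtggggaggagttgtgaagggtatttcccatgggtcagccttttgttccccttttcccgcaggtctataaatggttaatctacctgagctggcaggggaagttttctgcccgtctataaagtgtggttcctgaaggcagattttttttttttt
Lamb3, chr1:193301744-193301970, forward strand: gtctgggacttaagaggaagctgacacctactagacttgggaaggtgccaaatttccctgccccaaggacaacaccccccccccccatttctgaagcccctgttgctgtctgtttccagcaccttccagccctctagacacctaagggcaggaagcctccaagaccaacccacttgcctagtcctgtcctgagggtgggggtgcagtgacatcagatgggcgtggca
Dst, first window, chr1:34011345-34011594, forward strand: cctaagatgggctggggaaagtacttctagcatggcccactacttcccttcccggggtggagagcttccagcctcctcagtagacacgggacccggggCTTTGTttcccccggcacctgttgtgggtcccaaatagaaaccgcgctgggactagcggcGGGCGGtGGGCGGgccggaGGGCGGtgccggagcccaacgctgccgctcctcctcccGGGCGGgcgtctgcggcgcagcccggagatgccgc
Dst, second window, chr1:34160010-34160259, forward strand: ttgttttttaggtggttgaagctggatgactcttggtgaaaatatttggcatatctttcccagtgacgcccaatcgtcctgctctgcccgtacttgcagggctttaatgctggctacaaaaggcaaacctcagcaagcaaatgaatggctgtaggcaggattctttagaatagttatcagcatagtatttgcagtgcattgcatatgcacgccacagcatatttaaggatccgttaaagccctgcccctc

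The first Dst window held 4 GC boxes and 1 SOX core and had a GC content of 68.8%, against none and 45.2% in the second. GC boxes were present in 32.7% of the 32851 RefSeq windows of 250 bases, and the SOX letters in 16.5%. Neither Col17a1 nor Lamb3 held a match to these motifs in its 250 bases. Matches to TGANTCA, the AP-1 site (6.75% of all windows), to TAATCC, a PITX site (6.25%), or to a pair of p63 cores, CATG at a spacing of 6 bases (0.49%), were found in none of the windows of the 4 genes. A match or its absence in so short a window is a description of these letters only.

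The labels were checked first on the targeted gene, with levels given as CPM, counts as a share of the TMM-scaled library size. Mgll averaged 81.2 ± 9.97 CPM (SD, n = 4) in WT and 13.7 ± 1.54 CPM in MGL KO esophagi. Total counts lay between 13479069 and 17090152 per library. Basal keratins marked the tissue in every library, with Krt5 between 1257 and 2299.7 CPM. Libraries differed in composition within both groups. The summed level of 9 squamous epithelial genes was 4936 CPM in MGL KO replicate 2 and 5771 in WT replicate 3, against 10635 to 18301 in the other 6 libraries. The same libraries had the highest sums of 10 skeletal muscle genes, 99180 and 84930 CPM, against 42436 to 67609 elsewhere. MGL KO replicate 4 held RNA of airway genes. Its sum of 7 airway secretory genes was 9596 CPM, against at most 56.6 in any other library, and its sum of 8 airway ciliated genes was 563, against at most 18.9. Cdh1, 1 of the 9 squamous genes, was at 235 CPM in that library and at 44.7 to 105 CPM in the others. In whole-tissue RNA, fewer basal cells and less RNA per basal cell cannot be told apart.

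None of the 9 genes differed between MGL KO and WT esophagi at an adjusted p under 0.05 (edgeR's quasi-likelihood or QL test, Benjamini-Hochberg over all genes tested), where 0.0471% of all genes tested did, 0.0202% higher and 0.0269% lower in MGL KO. An unadjusted p under 0.05 was reached by 0 of the 9, against 8.65% of all genes. In 0 of the 9 did the libraries of the groups lie apart, against 6.02% of all genes. DESeq2, the exact test of edgeR and limma-voom with quality weights also called 0 of the 9, and of these limma-voom gave 2 of the 9, Col17a1 and Lama3, an unadjusted p under 0.05. In the QL test the same genes had one without MGL KO replicate 2 and WT replicate 3 together, and Col17a1 alone without MGL KO replicate 1. The share of all genes with such a p in these other fits is not given here, so the counts cannot be weighed against it. The fitted log2 fold change, MGL KO minus WT, was above 0 for 3 genes and below 0 for 6, and it was below 0 for 47% of all genes. Its median over the 9 was -0.13, beside 0.02 over all genes tested, and without MGL KO replicate 2 it was 0.01. Among the 6 hemidesmosome and laminin genes the median was -0.22, and it was 0.13 among the 3 transcription factor genes. Without MGL KO replicate 2 the median of the 6 was -0.06, and without WT replicate 3 that of the 3 was -0.013. The adjusted p ranged from 0.627 for Col17a1 to 0.930 for Dst.

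**Figure D1:**
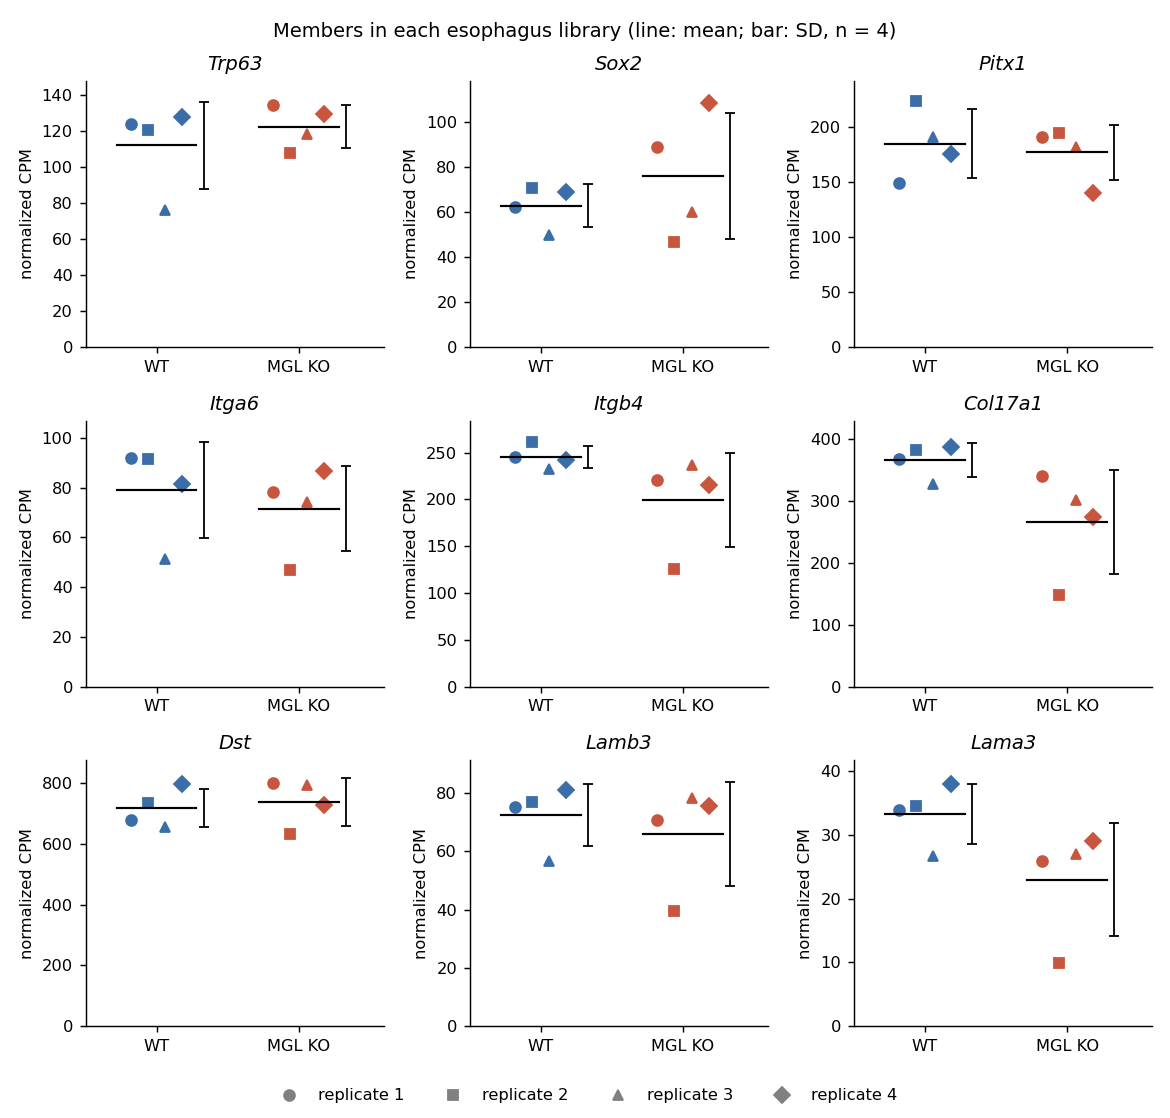
Normalized CPM (vertical axis, from 0) of each of the 9 genes in the 4 WT and 4 MGL KO libraries, with the marker shape giving the replicate number, the line the mean and the bar the SD. The groups overlap in every panel, and MGL KO replicate 2 (square) is the lowest MGL KO library in 8 of the 9.

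Trp63 was at 124, 121, 76.1 and 128 CPM in WT replicates 1 to 4. In the MGL KO replicates it was at 134, 108, 118 and 129.6. WT replicate 3 was the lowest library, at 61.3% of the mean of the other WT libraries, and the groups overlapped. The log2 fold change was 0.13 with a standard error of 0.17, and its 95% interval ran from -0.25 to 0.51. Differences beyond about 1.42-fold higher thus fell outside this interval. Without WT replicate 3, the log2 fold change was -0.013.

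Sox2 was at 62.3, 70.6, 49.6 and 69.0 CPM in the WT replicates. The MGL KO replicates gave 88.8, 46.7, 60.2 and 108. They spanned the whole WT range, with MGL KO replicate 4 highest and replicate 2 lowest. The coefficient of variation was 36.6% in MGL KO against 15.2% in WT. The log2 fold change of 0.28 (standard error 0.25) had a 95% interval from -0.29 to 0.84 and an adjusted p of 0.756 by edgeR QL. MGL KO replicate 4 is the library with airway genes, and SOX2 is also known in airway epithelium. Without that library the log2 fold change was 0.06, and without MGL KO replicate 2 it was 0.45. The part of airway RNA in this value, in those of the other genes and in the squamous list was not tested.

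Pitx1 was at 149, 224, 191 and 176 CPM in the WT and at 191, 195, 182 and 140.1 in the MGL KO replicates. It did not share the low values of the other genes. MGL KO replicate 2 stood at 114% of the mean of the other MGL KO libraries and WT replicate 3 at 104% of the other WT libraries. The log2 fold change was -0.06 (standard error 0.16, 95% interval -0.42 to 0.29). Its sign changed to 0.03 without MGL KO replicate 4 and to 0.042 without WT replicate 2.

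Of the integrin subunits, Itga6 was at 91.9, 91.7, 51.1 and 81.7 CPM in WT and at 78.4, 47.1, 74.1 and 86.9 in MGL KO replicates 1 to 4. WT replicate 3 and MGL KO replicate 2 were low by a similar share, 57.8% and 59.0% of the other libraries of their group. The log2 fold change was -0.14 (standard error 0.23, 95% interval -0.66 to 0.38). It was 0.015 without MGL KO replicate 2. Its partner Itgb4 was steady in WT, at 245, 261, 233 and 242 CPM, a coefficient of variation of 4.82%. In MGL KO it was at 220.3, 125, 237 and 216, so that only MGL KO replicate 3 reached the lowest WT library. The log2 fold change of Itgb4 was -0.30 (standard error 0.19, 95% interval -0.72 to 0.13, adjusted p = 0.672, edgeR QL), and it was -0.13 without MGL KO replicate 2. Per kilobase of the canonical transcript, Itgb4 stood above Itga6 in every library, by 1.89- to 3.23-fold in WT and 1.76- to 2.27-fold in MGL KO esophagi. Per kilobase of all annotated exons, these folds were 4.20 to 7.18 in WT and 3.91 to 5.04 in MGL KO.

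Col17a1 was at 367, 383, 327 and 387 CPM in WT replicates. In MGL KO it was at 341, 148, 302 and 274. MGL KO replicate 1 alone lay above the lowest WT library, and MGL KO replicate 2 was at 48.3% of the mean of the other MGL KO libraries. The log2 fold change was -0.46 (standard error 0.23, 95% interval -0.98 to 0.06), with an unadjusted p of 0.0780 and an adjusted p of 0.627 by edgeR QL. Without MGL KO replicate 2 it was -0.26. Dst, the plakin gene, had the highest counts of the 9, at 679, 735, 655 and 796 CPM in WT and 799.8, 631, 793 and 727 in MGL KO. Its log2 fold change was 0.04 (standard error 0.13, 95% interval -0.25 to 0.34), and between 0.0061 (without MGL KO replicate 1) and 0.11 (without MGL KO replicate 2) with 1 library left out. Dystonin is also made in muscle and neurons, whose forms the count cannot separate from the epithelial one.

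The laminin chain genes were read less than Col17a1 and Dst. Lamb3 was at 75.2, 76.7, 56.7 and 81.0 CPM in WT and 70.7, 39.5, 78.2 and 75.4 in MGL KO. The groups overlapped, and the log2 fold change was -0.13 (standard error 0.21, 95% interval -0.61 to 0.35). Without MGL KO replicate 2 it was 0.049. Lama3 was at 33.9, 34.5, 26.8 and 37.9 CPM in WT. In MGL KO it was at 25.8, 9.93, 27.1 and 29.1. MGL KO replicate 2, with 110 counts, was at 36.3% of the mean of the other MGL KO libraries. Lama3 had the lowest log2 fold change of the 9, -0.53, with a standard error of 0.29 and a 95% interval from -1.19 to 0.14 (adjusted p = 0.646, edgeR QL). Without MGL KO replicate 2 it was -0.28. Its exons share 420 bases with the pseudogene Gm29201 on the same strand.

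Levels of the genes were set side by side as CPM per kilobase of the canonical GENCODE transcript. In WT, Pitx1 came first (75.4 ± 12.7, SD, n = 4) and Col17a1 next (65.5 ± 4.91), with overlapping ranges. Itgb4 followed at 39.4 ± 1.90, below every WT library of Col17a1 and above every one of Dst. Next came Dst (28.2 to 34.3), Sox2 (30.6 ± 4.63), Trp63 (23.8 ± 5.15), Itga6 (17.9 ± 4.36) and Lamb3 (10.2 to 14.5), and in this run each gene overlapped its neighbours. Lama3, at 2.72 ± 0.38, lay below every library of Lamb3. In MGL KO the order was the same except for Sox2, whose mean of 37.0 ± 13.5 placed it above Itgb4 (32.0 ± 8.08), with overlapping ranges. The order depends on the length used. Over all annotated exons the WT level per kilobase was 15.9 for Dst, below Sox2, and 8.80 for Lamb3, above Itga6 at 6.95.

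Across libraries, the low values coincided. MGL KO replicate 2 was the lowest of its group in 8 of the 9 genes, and WT replicate 3 was the lowest of its group in 8, Pitx1 being the exception in each case. All 6 hemidesmosome and laminin genes were lowest of all 8 libraries in MGL KO replicate 2. These are the same libraries in which squamous genes were low and skeletal muscle genes high. Averaged over the 9 genes, centred log2 CPM was -0.60 in MGL KO replicate 2 and -0.18 in WT replicate 3, against 0.04 to 0.22 in the others. The depth of the drop differed between genes. Trp63 in MGL KO replicate 2 kept 84.6% and Dst 81.6% of the mean of the other MGL KO libraries, whereas Itgb4 kept 55.9% and Lama3 36.3%. In WT replicate 3 the order was different, with Trp63 at 61.3%, Itga6 at 57.8%, Col17a1 at 86.2% and Itgb4 at 93.4% of the other WT libraries.

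**Figure D2:**
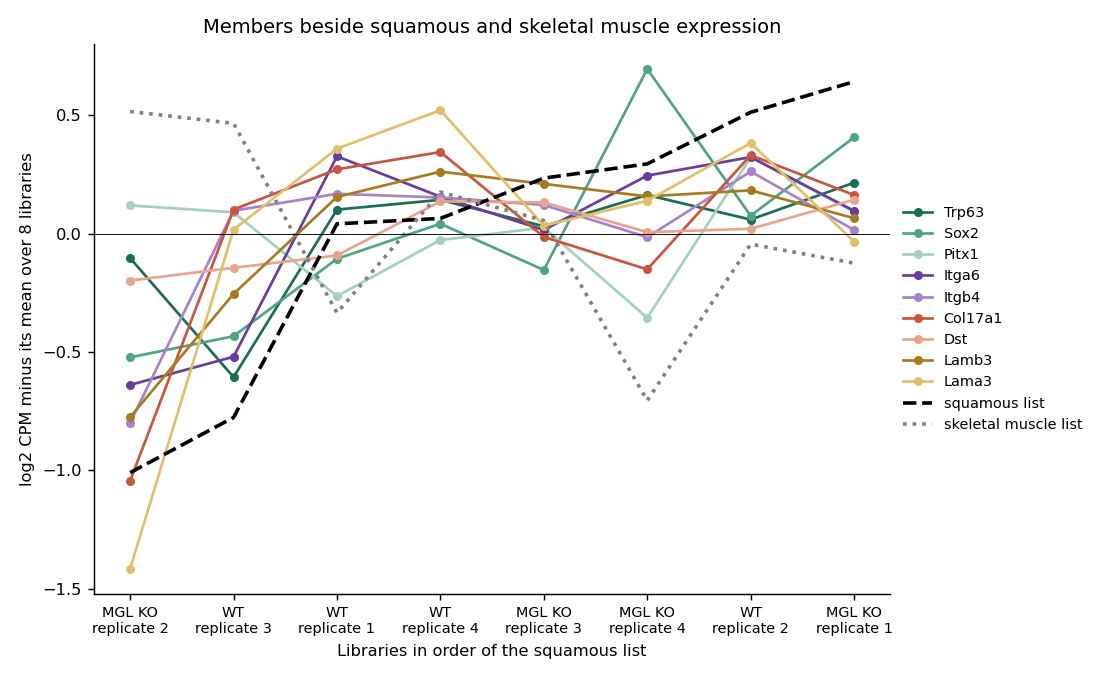
Log2 CPM minus its mean over the 8 libraries (vertical axis) for the 9 genes, the mean of 9 squamous genes (dashed) and of 10 skeletal muscle genes (dotted), with libraries ordered by the squamous mean. Lines join values of 1 gene or list. Most of the 9 genes are lowest at the left, in MGL KO replicate 2 and WT replicate 3, where the muscle list is high, and Pitx1 is not.

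Tissue composition was then put into the fit beside genotype. The tests of its slope, and the fit on basal keratins, were added after the values were seen, and Krt5, Krt14 and Krt15 are also in the squamous list. With the mean log2 CPM of the squamous list, the slope was above 0 for 8 of the 9 genes, from 0.18 (Dst) to 0.71 (Lama3), and -0.02 for Pitx1. Slopes are in log2 CPM of the gene per log2 unit of the list. The slope passed an adjusted p of 0.05 for 2 genes (edgeR QL), Itga6 (0.58, standard error 0.11, adjusted p = 0.0346) and Lamb3 (0.52, standard error 0.11, adjusted p = 0.0471), against 3.55% of all genes tested (2.04% with a slope above 0). With the mean of Krt5, Krt14 and Krt15 in its place, the slopes were 0.98 for Itga6, 0.94 for Col17a1, 0.92 for Lamb3 and 1.22 for Lama3, and 0.57 for Trp63, 0.35 for Dst and -0.06 for Pitx1. Only that of Lamb3 passed (adjusted p = 0.0489, edgeR QL), against 2.12% of all genes (1.05% above 0). With the skeletal muscle list, the slope was below 0 for 8 of the 9 genes and passed for Sox2 (-0.84, adjusted p = 0.0299) and Itga6 (-0.79, adjusted p = 0.0303, both edgeR QL), against 15% of all genes (7.06% below 0). Pitx1 was the exception, with a slope of 0.35. All lists were read in the same libraries as the genes, and shares of 1 total move against each other.

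With the squamous list in the fit, the genotype differences became larger in size for 5 of the 6 hemidesmosome and laminin genes, and their standard errors smaller. Col17a1 was at a log2 fold change of -0.57 (95% interval -0.88 to -0.26), Lama3 at -0.68 (-1.09 to -0.26) and Itgb4 at -0.37 (-0.66 to -0.07). These 3 of the 9 genes had an unadjusted p under 0.05, against 13.7% of all genes. The adjusted p values were 0.219, 0.243 and 0.306 (edgeR QL), so none passed, against 0.074% of all genes. With the mean of the 3 basal keratins, the values were -0.62 for Col17a1, -0.73 for Lama3, -0.40 for Itgb4 and -0.25 for Lamb3. These 4 had an unadjusted p under 0.05, against 15.5% of all genes, and adjusted p values of 0.186, 0.213, 0.258 and 0.322 (edgeR QL), where 0.0673% of all genes passed. With the skeletal muscle list, Itgb4 (-0.37), Col17a1 (-0.55) and Lama3 (-0.70) had an unadjusted p under 0.05, against 15.6% of all genes, and 0 of the 9 passed after adjustment, against 0.161%. With the basal keratins, the intervals of Dst (-0.22 to 0.23), Trp63 (-0.19 to 0.37) and Pitx1 (-0.42 to 0.31) held 0. So did those of Itga6 (-0.52 to 0.06) and Sox2 (-0.27 to 0.62).

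**Figure D3:**
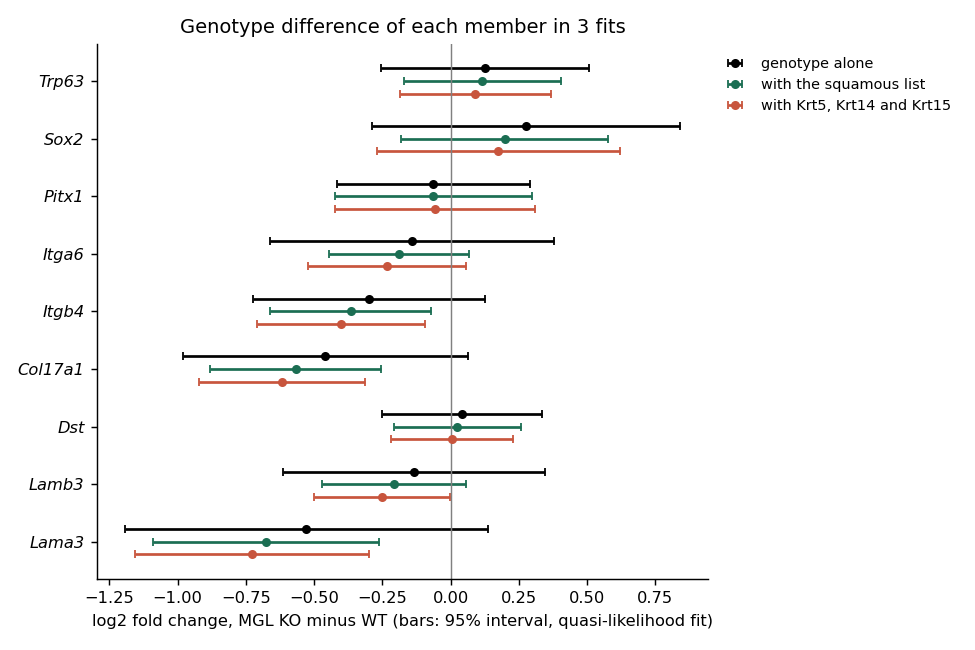
Log2 fold change, MGL KO minus WT (horizontal axis), with its 95% interval for the 9 genes in 3 fits, namely genotype alone, with the squamous list and with Krt5, Krt14 and Krt15. With genotype alone every interval holds 0, whereas those of Itgb4, Col17a1 and Lama3 lie below 0 in the other fits, with adjusted p values of 0.186 or more.

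Read against basal keratins within each library, Col17a1, Itgb4 and Lama3 separated the groups, though in CPM alone the groups overlapped for each. This reference was added after the values were seen, and the squamous list was the one planned. The log2 CPM of Col17a1 minus the mean of Krt5, Krt14 and Krt15 was -1.66, -1.67, -1.28 and -1.66 in the WT replicates. It was -2.13, -2.38, -2.12 and -2.12 in the MGL KO replicates. Every MGL KO library lay below every WT library. The same held for Itgb4, at -2.33 to -1.77 in WT and -2.76 to -2.46 in MGL KO. It also held for Lama3, at -5.14 to -4.88 in WT and -6.26 to -5.35 in MGL KO. Such a separation was found in 3 of the 9 genes, against 3.69% of all genes read against the same keratins (3.42% with MGL KO lower). Against the squamous list, 1 of the 9 was separated, Lama3, against 1.26% of all genes. Trp63 differed from the keratins by -3.30 ± 0.07 (SD, n = 4) in WT and -3.24 ± 0.30 in MGL KO, and Sox2 by -4.12 ± 0.09 and -4.00 ± 0.41, with overlapping libraries. The keratins themselves had log2 fold changes of 0.05 (Krt5), 0.28 (Krt14) and 0.03 (Krt15), with adjusted p values of 0.734 or more by edgeR QL.

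**Figure D4:**
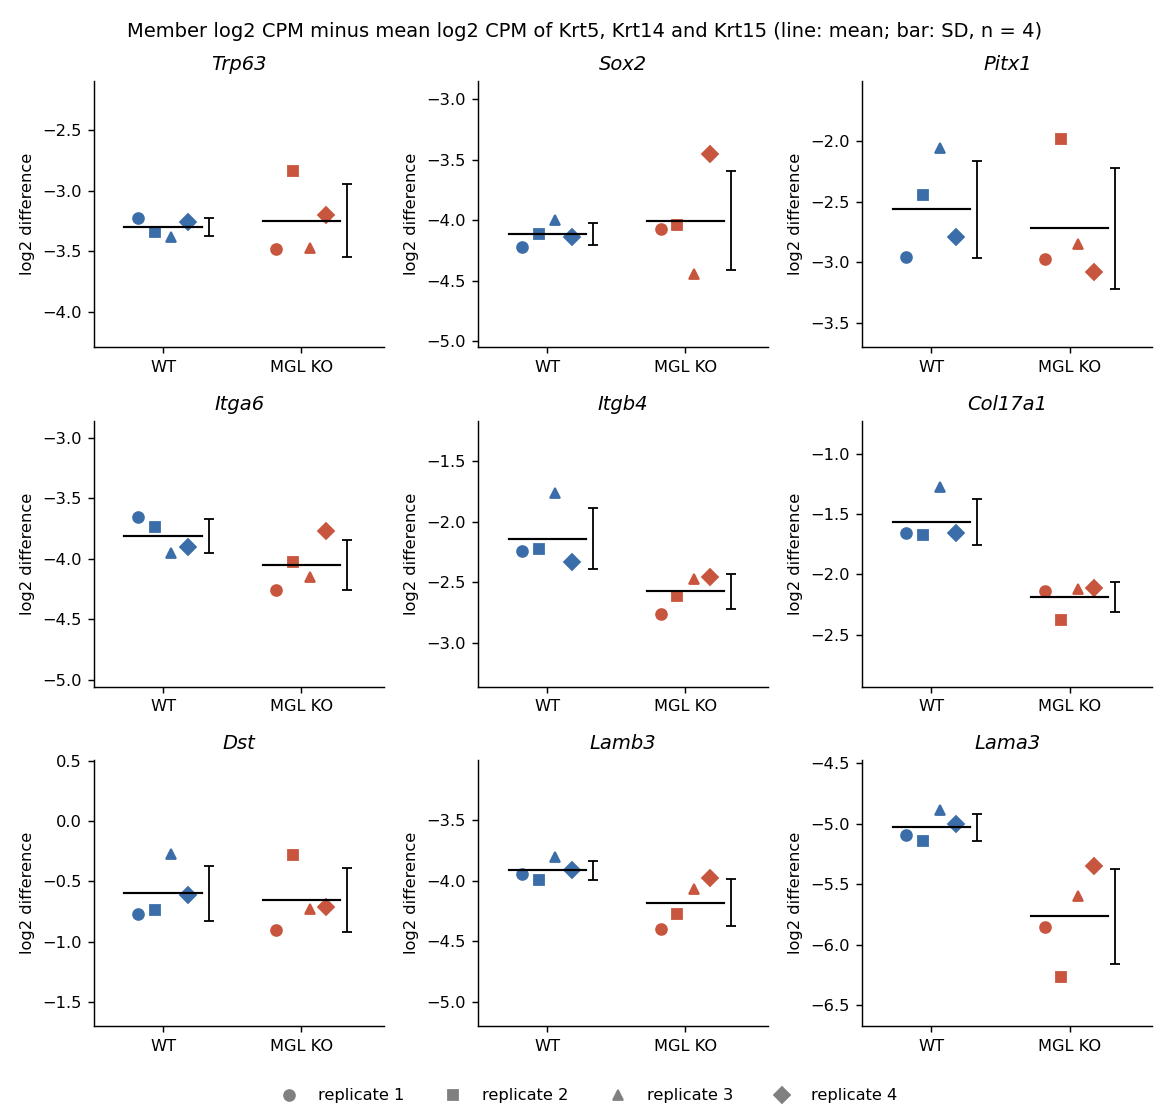
Log2 CPM of each of the 9 genes minus the mean log2 CPM of Krt5, Krt14 and Krt15 in the same library (vertical axis, all panels of equal height), with the mean (line) and SD (bar) of 4 WT and 4 MGL KO libraries. The groups lie apart for Itgb4, Col17a1 and Lama3 and overlap for the other 6 genes. The keratin reference was added after the values were seen.

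Partner genes were also compared within a library, as ratios of CPM per kilobase of the canonical transcript. Of 5 pairs given here, which were picked with the levels of these genes known and so were not tested, the libraries of the groups lay apart in 2. The ratio of Lamb3 to Lama3 was held within a narrow range in WT, at 4.86, 4.88, 4.64 and 4.68. In MGL KO it ran from 5.68 to 8.73, with a mean of 6.69 ± 1.39 (SD, n = 4), and every library was higher. With Lamb3 as reference, 2.72% of all genes separated the groups, and 1.14% with MGL KO lower. The ratio of Col17a1 to Dst was 2.02 to 2.25 in WT and 0.97 to 1.77 in MGL KO, and 5.13% of all genes separated the groups with Dst as reference, 4.23% with MGL KO lower. Over all annotated exons it was 3.65 to 4.06 in WT and 1.76 to 3.20 in MGL KO. In these pairs MGL KO replicate 2 was the farthest from WT, and the other 3 MGL KO libraries lay on the same side. The Dst count cannot separate muscle forms from the epithelial one, and MGL KO replicate 2 had the highest skeletal muscle sum. The part of muscle in the ratio of Col17a1 to Dst was not tested. Ratios of Itgb4 to Itga6, Trp63 to Sox2 and Col17a1 to Itgb4 overlapped between the groups. With Itgb4 as reference, 10.7% of all genes separated the groups, 0.484% with MGL KO lower.

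**Figure D5:**
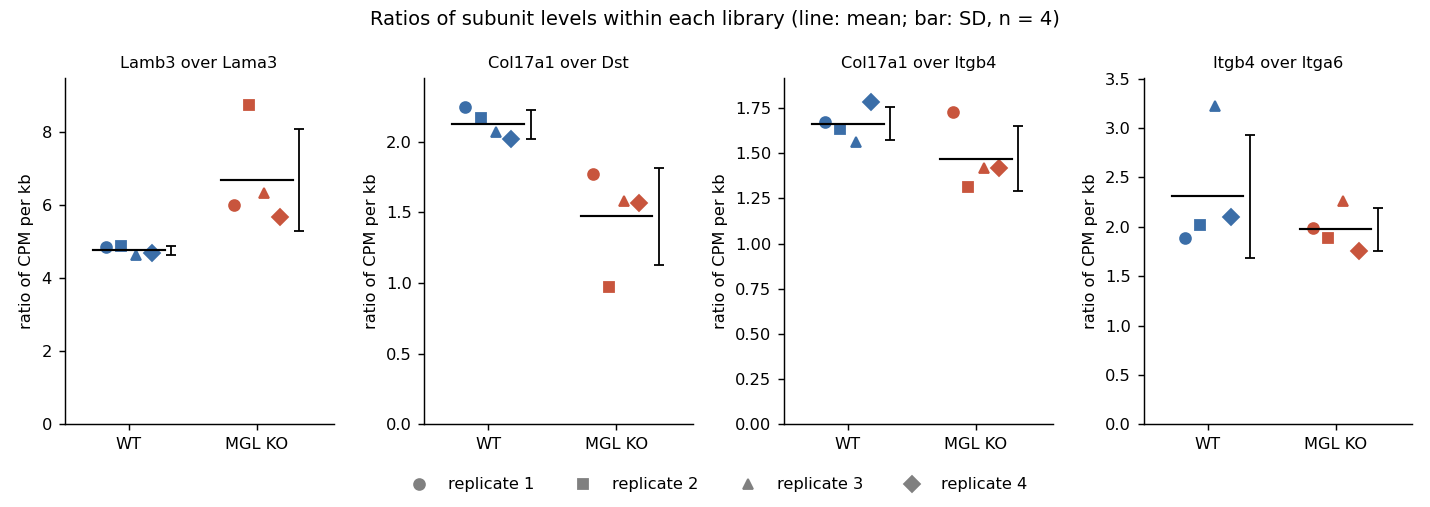
Ratios of CPM per kilobase (vertical axis, from 0) for 4 pairs of genes in each library, with the mean (line) and SD (bar, n = 4). WT libraries sit between 4.64 and 4.88 for Lamb3 over Lama3 and MGL KO libraries between 5.68 and 8.73, whereas Itgb4 over Itga6 and Col17a1 over Itgb4 overlap.

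Among 13 other hemidesmosome and anchoring genes, 0 passed an adjusted p of 0.05 in either direction and 0 an unadjusted one, with 5 fitted higher and 8 lower in MGL KO and a median log2 fold change of -0.05. The most abundant was Plec, the other plakin of the hemidesmosome, with a mean of 1259 ± 151 CPM in WT and 1219 ± 189.5 CPM in MGL KO (SD, n = 4). Hspg2, which encodes perlecan, was at a log2 fold change of -0.20, Itgb1, the β1 integrin subunit gene, at 0.12, and Lama5, a laminin chain gene, at -0.26. Of 14 other regulators of basal and squamous cells, 0 passed in either direction, with a median of -0.04. Klf5 was at 0.28, Pax9 at -0.21, Trp53 at -0.17 and Tfap2a at -0.39 on the log2 scale. Of 12 genes known as p63 targets, 3 of which are also in the squamous list, 0 passed, with a median of 0.03. Krt14 was at 0.28, Perp at 0.02, Evpl at -0.26 and Sfn at 0.54. Jag2, a Notch ligand gene named here after its values were seen, was the 1 gene of these 39 with an unadjusted p under 0.05 and with separated libraries, against 8.65% and 6.02% of all genes. It averaged 186 ± 25.4 CPM in WT and 134 ± 28.5 CPM in MGL KO (SD, n = 4), a log2 fold change of -0.47 with an adjusted p of 0.531 by edgeR QL.

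The genes whose profile over the 8 libraries was nearest to the mean profile of the 9 were Ahnak, Rprd1a, Pld1, Acap2 and Mta3. Their root mean square distance from it was 0.05, 0.06, 0.06, 0.07 and 0.07 on the log2 scale. Each was lowest in MGL KO replicate 2, which follows from choosing them by nearness to a profile lowest there. Ahnak was at 1041 CPM there and up to 1791 elsewhere. Among the 9 genes, Lamb3 lay nearest, at a distance of 0.10 and place 49 of all genes tested, and Pitx1 farthest, at 0.35. The profile is an average over genes that differ among themselves, so the distance describes these 8 libraries only.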

How the data were processed

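Per the labels, 8 poly(A)-selected libraries of mouse esophagus, 4 MGL KO and 4 WT, were analysed. The authors checked reads with FastQC 0.11.9, trimmed adapters with Cutadapt, aligned to GRCm39 with STAR 2.7.10b and deposited whole-number counts per gene symbol, without normalization. The counting tool and annotation are not given in the sources used here. The libraries were run on a pair of NovaSeq models without a label of which.

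Genes were kept by filterByExpr at a minimum count of 10 (edgeR 4.0.16, limma 3.58.1, DESeq2 1.42.0, R 4.3.3). Library sizes over kept genes were scaled by TMM factors, from 0.823 to 1.11. The groups were compared by the quasi-likelihood (QL) test of edgeR, with standard errors and intervals taken from its F statistic, at an adjusted p of 0.05. Log2 CPM used a prior count of 1. A count of 3, the limit a 0 allows, equals 0.167 to 0.271 CPM, for counting error only. At least 1157 counts stood behind Trp63 and 110 behind Lama3 in each library. Replicates are labelled as separate mice only by number, so p-values measure the spread between these libraries.

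The genes and lists were chosen with earlier results of these data known. Named were Mgll, the 9 genes, up to 4 genes of each list in order of mean CPM, and the 5 genes nearest in profile. The rule also held Kbtbd12, which cannot check the labels and is not used. Lists held markers of basal keratinocytes, differentiated squamous epithelium, squamous epithelium, skeletal and smooth muscle, fibroblasts, endothelium, Schwann cells and glia, airway ciliated and secretory cells, thyroid and Y-linked genes. Positions and lengths came from GENCODE vM39 on GRCm39. Scripts were tested on simulated data. Alternatives were other scaling, filters and tests, covariates, a replicate block and left-out libraries. Same-numbered libraries deviated from their group means with correlations of -0.14, -0.28, -0.14 and 0.08 over 14864 genes. Results of 1 further gene are not reported here.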

Additional observations from a re-analysis of the deposited data

Results flagged for a closer look

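Of 36 groups of 4 values examined for a library far from its group, 2 held one, where chance gives about 1.8. Trp63 was low in WT replicate 3, at 76.1 CPM against at least 121 in the other WT libraries. Lama3 was low in MGL KO replicate 2, at 9.93 CPM against at least 25.8 in the other MGL KO libraries. Both are the libraries with the lowest squamous and highest skeletal muscle expression, and the part of tissue composition in these values was not tested.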

How the results depend on the processing

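The count of the 9 genes with a genotype difference stayed 0 in all 24 alternatives, and so did that of the 39 other pathway genes. The median log2 fold change of the 9 genes was -0.23 with the basal keratin and with the skeletal muscle covariate, -0.19 with the squamous, -0.045 with the Y-linked covariate, -0.082 with limma-voom and -0.094 without both low libraries, against -0.13. It lay between -0.23 (without WT replicate 3) and 0.01 (without MGL KO replicate 2) with 1 library left out, and their median difference to the squamous list between -0.38 and -0.08. Of 216 values of single genes, 210 kept their direction. With 1 library left out, Trp63 ran from -0.013 (WT replicate 3 left out) to 0.20, Pitx1 from -0.15 to 0.042 (above 0 at 0.03 with MGL KO replicate 4 and at 0.042 with WT replicate 2 left out), Itga6 from -0.30 to 0.015 and Lamb3 from -0.23 to 0.049, both above 0 only when MGL KO replicate 2 was left out. Itga6 was at 0.0057 with the Y-linked covariate. Without MGL KO replicate 2 and WT replicate 3 together, the log2 fold changes of Col17a1, Lama3 and Itgb4 were -0.31, -0.37 and -0.15. Without MGL KO replicate 4, those of Itga6, Itgb4, Col17a1, Dst, Lamb3 and Lama3 were -0.25, -0.34, -0.47, 0.051, -0.20 and -0.66. Over all genes, 7 were called. The count was 2 without a filter, in the robust fit, with the replicate block and without both low libraries, and 3 with the Y-linked covariate. It was 11 with the squamous covariate, 24 with the skeletal muscle covariate, 25 with limma-voom, 42 and 64 in the exact test on all and on filtered genes, and 138 with DESeq2, and 2 to 5 with 1 library left out. It was 10 with the basal keratin covariate, chosen after seeing the data. The cause was not tested. The replicate numbers do not pair the libraries, and the replicate block called 0 of the 9 genes. Lama3 had the lowest counts of the 9 genes, 110 to 608.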

Other observations

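Markers of stromal cells had fitted log2 fold changes below 0. This held for all 6 fibroblast genes, with a median log2 fold change of -0.33, and all 6 endothelial genes, with a median of -0.24, though 0 of either list passed an adjusted p of 0.05 by edgeR QL. Within each group, the summed levels were lowest in the library low in squamous genes. They were 1041 CPM for fibroblasts and 151 CPM for endothelium in MGL KO replicate 2, and 1579 and 193 CPM in WT replicate 3. MGL KO replicates 1 and 4, not low in squamous genes, had fibroblast sums of 1458 and 1236 CPM, below every WT library. For endothelium, MGL KO replicate 1 was below every WT library at 181 CPM and replicate 4 within the WT range at 225. MGL KO replicate 3, at 2111 and 265 CPM, lay within the WT range for fibroblasts and above it for endothelium. The part of tissue composition in these values was not tested. A log2 fold change below 0 was fitted for 47% of all genes tested. An unadjusted p under 0.05 was reached by 2 of the 6 fibroblast genes and 1 of the 6 endothelial genes, against 8.65% of all genes. Dcn, which encodes decorin, averaged 578 ± 51.7 CPM in WT and 451 ± 70.4 CPM in MGL KO (SD, n = 4), and its libraries did not overlap, as in 6.02% of all genes. It is named after its values were seen.

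Other lists had medians of -0.00 (6 basal keratinocyte genes), 0.03 (8 genes of differentiated squamous epithelium), 0.05 (9 squamous genes), 0.05 (10 skeletal muscle genes), -0.05 (6 smooth muscle genes), -0.03 (6 Schwann and glial genes) and -0.06 (4 Y-linked genes). None of their genes passed. Integrin α6β4 is also known in Schwann cells, whose 6 markers summed to 115 to 247 CPM in WT and 123 to 235 in MGL KO. The 6 tested airway ciliated genes had a median of 2.38 and the 1 tested airway secretory gene 9.75, from MGL KO replicate 4. Of 5 thyroid genes 1 was tested, Tshr, at 1.05.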
